A study of Mus musculus with 6 samples.

Results

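The Toll-like receptor (TLR) family of cultured mouse microglia was followed as 10 transcripts, Tlr1 to Tlr9 and Tlr13, taken by gene symbol from the 55487 genes counted in each library. They were set out as 5 receptors of the cell surface (Tlr1, Tlr2, Tlr4, Tlr5 and Tlr6) and 5 of the endosome (Tlr3, Tlr7, Tlr8, Tlr9 and Tlr13). Of the 10, 8 passed the filter on low counts and were tested, and Tlr5 and Tlr9 did not. In the cultures with Cre (Cre+) against those without (Cre-), Tlr2 fell and Tlr1 and Tlr4 rose, each a receptor of the cell surface. The call of Tlr1 was lost in 5 of the 6 fits that left out 1 library. None of the 4 endosomal receptors tested passed the threshold, which 5.07% of all genes tested passed. A class of 4 genes cannot show a share below that.

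Primary microglia were grown from the cortex of CAG::CreERT2; Nr1d1fl/fl pups at postnatal days 1 to 3. Nr1d1 encodes REV-ERBα, a nuclear receptor of the circadian clock that represses transcription. The Cre- group (3 libraries) carried the floxed Nr1d1 alleles without the recombinase, and the Cre+ group (3 libraries) carried the same alleles with it. All 6 cultures received 4-hydroxytamoxifen (4-OHT), the ligand that lets CreERT2 enter the nucleus, at 1.5 μM for 2 days, so the drug was shared and the recombinase was not. The CAG promoter is active in nearly all cell types, so deletion was not restricted to microglia by the driver. The labels number the libraries within a group without naming litters or animals, and p-values then measure only the spread between these libraries.

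Gene counts summed to between 87545868 and 93942161 in Cre- and between 93701215 and 110909129 in Cre+ libraries. More genes had at least 1 count in Cre- libraries (32587 to 35166) than in Cre+ libraries (29941 to 30677). Nr1d1, the targeted gene, was counted 204, 111 and 147 times in Cre- and 110, 88 and 109 times in Cre+ libraries. Scaled to depth, all Cre+ values were below all Cre- values, yet the log2 fold change of -0.77 (standard error, SE, 0.25) had an adjusted p of 0.094 in edgeR's quasi-likelihood test. When each of the 6 libraries was left out in turn, Nr1d1 passed the threshold in 1 fit and missed it in 5. The fit that passed was without Cre- replicate 2, the lowest of its group (log2 fold change -0.98, edgeR adjusted p = 0.041). Without Cre- replicate 1, the highest of its group, the log2 fold change was -0.50 (edgeR adjusted p = 0.31). Counts per gene also cover exons outside the floxed part. Of 12 microglial markers, 10 passed the filter, and their summed level overlapped between the groups (7176 to 7407 CPM, counts scaled to a common library total, in Cre- and 7207 to 7476 in Cre+). P2ry12 and Sall1, markers of microglia in the intact brain, were below the filter.

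TLRs are transmembrane proteins that bind microbial products, or the cell's own nucleic acids and damaged molecules, and start NF-κB and interferon responses through the adaptors MyD88 and TRIF. Receptors of the cell surface bind lipids and proteins, TLR2 as a partner of TLR1 or TLR6, TLR4 with its coreceptor MD-2, and TLR5 alone. Receptors of the endosome bind nucleic acids and need the chaperone UNC93B1 to leave the endoplasmic reticulum. In the brain, microglia are a main cell type that expresses them.

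The sequences that bear on the counts are shown first. Tlr1 (chr5:64924679-64933563, minus strand, GRCm38) and Tlr6 (chr5:64952031-64960097, minus strand) are neighbours, and their transcripts were 88.8% identical over 1328 aligned bases. They share 2 identical runs of at least 150 bases, of 229 and 208 bases, each inside a coding exon of both genes. A single read that lies within either run cannot be told apart between Tlr1 and Tlr6. The authors sequenced paired reads of 150 bases, so a pair is ambiguous only where both of its reads lie within these runs. The shorter run covers chr5:64925291-64925498 in Tlr1 and chr5:64953582-64953789 in Tlr6. The longer run is printed as the widest such stretch and covers chr5:64925537-64925765 in Tlr1 and chr5:64953828-64954056 in Tlr6, read on the minus strand:
Tlr1 and Tlr6 longest shared run: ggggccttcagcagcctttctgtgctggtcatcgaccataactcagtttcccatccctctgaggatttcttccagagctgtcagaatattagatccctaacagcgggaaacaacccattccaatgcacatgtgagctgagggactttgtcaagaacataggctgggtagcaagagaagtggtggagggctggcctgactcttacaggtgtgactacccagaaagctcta
Windows of 150 bases that occur in both genes made up 4.83% of all such windows in the Tlr1 transcript and 3.94% in the Tlr6 transcript. Tlr7 and Tlr8, neighbours on the X chromosome, were 66.2% identical over 473 aligned bases and shared no run longer than 13 bases. Tlr3 overlaps the antisense gene Gm45542 by 381 exonic bases, and Gm45542 had at most 1 count in any library.

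RefSeq promoters, from 250 bases before to 50 bases after the start of transcription on GRCm38.p6, were at hand as 12 windows of 10 mouse TLR genes, Tlr11 and Tlr12 included, with no entry for Tlr4 and Tlr7. Both strands were searched for 5 motifs, namely AGGTCA, the core of REV-ERB and ROR sites, GAGGAAGT, a motif of the myeloid factor PU.1, and the longer motifs RORE, NF-κB and ISRE. The promoters of Tlr2 and Tlr1 are printed because these partners of one receptor moved in opposite directions. Capitals mark AGGTCA on the opposite strand in Tlr2 (chr3:83841559-83841858, minus strand) and GAGGAAGT in Tlr1 (chr5:64933509-64933808, minus strand):
Tlr2 promoter: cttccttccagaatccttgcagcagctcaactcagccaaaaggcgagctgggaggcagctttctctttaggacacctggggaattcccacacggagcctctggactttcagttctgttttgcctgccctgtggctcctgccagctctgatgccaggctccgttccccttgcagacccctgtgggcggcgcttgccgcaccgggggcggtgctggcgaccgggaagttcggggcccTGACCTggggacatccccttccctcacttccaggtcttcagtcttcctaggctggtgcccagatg
Tlr1 promoter: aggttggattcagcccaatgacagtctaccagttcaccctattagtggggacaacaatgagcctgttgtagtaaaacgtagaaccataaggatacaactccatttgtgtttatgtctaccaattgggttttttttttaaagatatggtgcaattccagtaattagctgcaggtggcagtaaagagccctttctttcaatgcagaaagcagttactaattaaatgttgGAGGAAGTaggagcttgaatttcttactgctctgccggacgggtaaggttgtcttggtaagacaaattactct
AGGTCA stood 15 bases before the Tlr2 start and also occurred in the windows of Tlr5 and Tlr9, or 3 of the 12 windows against 16.3% of 32851 mouse promoters. The longer ROR response element (RORE), which contains AGGTCA, was found in 0 of the 12 windows and in 0.219% of all promoters. GAGGAAGT stood 23 bases before this Tlr1 start, in 3 of the 12 windows and in 3.20% of all promoters. The NF-κB motif was found in 1 of the 12 windows (Tlr3) and in 1.63% of all promoters. The ISRE, an interferon response motif, was found in 2 of the 12 windows (Tlr6 and Tlr11) and in 3.44% of all promoters. These matches describe letters in a window and carry no measurement of binding.

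Levels of different receptors were compared as CPM per kilobase of gene length, after TMM normalization. Tlr13, the receptor for bacterial ribosomal RNA, was the most abundant, at a mean of 59.2 in Cre- and 64.7 in Cre+ cells. Tlr2 came next, at 28.5 and 21.5 CPM per kilobase. Tlr7, Tlr8, Tlr4 and Tlr6 lay between 3.89 and 9.52 CPM per kilobase in every library. Tlr1 and Tlr3 lay between 0.734 and 1.33, and Tlr9 between 0.0249 and 0.105. In this order the ranges over the 6 libraries overlapped between Tlr7 and Tlr8, between Tlr8 and Tlr4, and between Tlr1 and Tlr3, and no other neighbours overlapped. Tlr4 ranked below Tlr8 in Cre- cells (5.98 against 7.52 CPM per kilobase) and above it in Cre+ cells (7.97 against 6.87). This swap depended on the length used. The gene length was 5556 bases for Tlr4 and 3586 for Tlr8, and the longest transcript 4077 and 3431 bases. With the longest transcript as length, Tlr4 stood above Tlr8 in both groups. Among all genes tested, the length-scaled level of Tlr13 stood at percentile 93.7, that of Tlr2 at 86.2 and that of Tlr3 at 18.5.

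**Figure D1:**
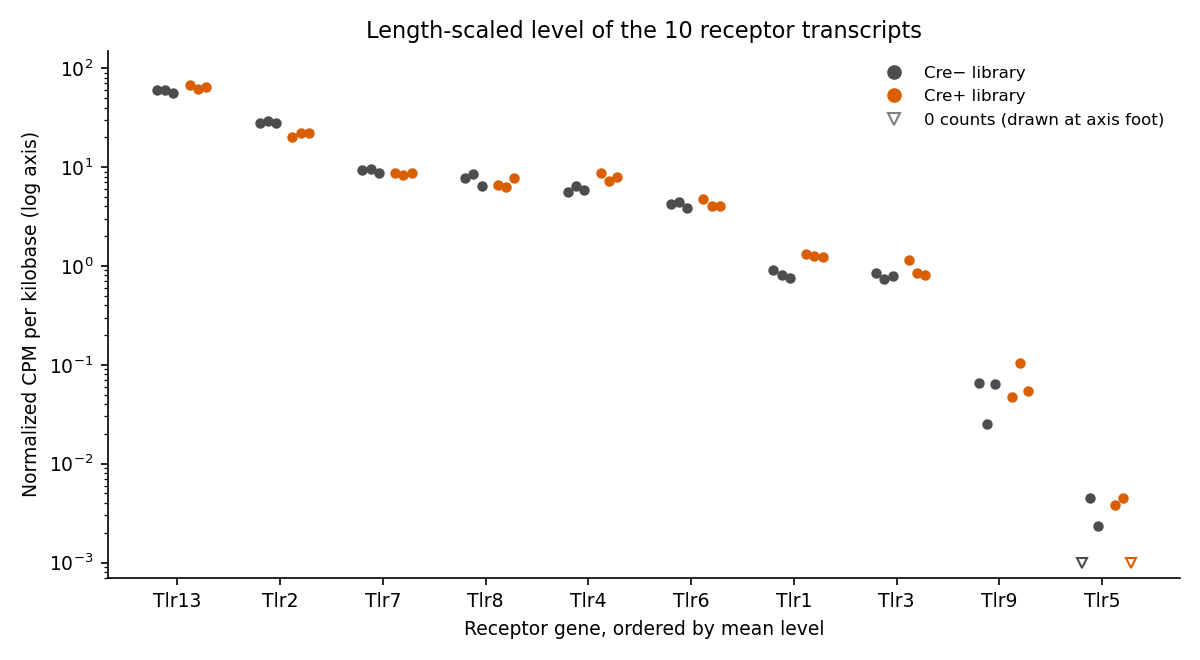
TMM-normalized CPM per kilobase of gene length (log axis) of the 10 receptor transcripts, ordered by mean level, with 1 point per library (grey, Cre-; orange, Cre+; open triangles at the axis foot, 0 counts). Tlr13 and Tlr2 stand above the other receptors in all 6 libraries, and Tlr9 and Tlr5 stand at the bottom.

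Counts over the family come before its members. Of the 8 members tested, 3 passed the threshold of 0.05 on edgeR's adjusted p, against 5.07% of the 11429 genes tested. The members were chosen with earlier results of these data known. Of the 3 called, 2 were higher in Cre+ cells (2.50% of all genes) and 1 was lower (2.56% of all genes). For 4 of the 8 members the groups of libraries were fully apart, against 24.0% of all genes. The median log2 fold change of the 8 was 0.08, beside 0.00233 over all genes tested, and their median size was 0.19, beside 0.11. RNA came from whole cultures, in which fewer cells of a type and less RNA per cell cannot be told apart.

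Tlr2 (chr3:83836272-83841767, minus strand), which binds bacterial lipopeptides together with TLR1 or TLR6, was at 84.4, 89.0 and 83.9 CPM in the Cre- libraries and at 60.9, 67.2 and 66.2 CPM in the Cre+ libraries. All 3 Cre+ libraries were below all 3 Cre- libraries. The mean fell by 24.5%, from 85.8 ± 2.83 to 64.8 ± 3.35 CPM (SD, n = 3 libraries each), with an adjusted p of 5.02e-04 from edgeR. The log2 fold change was -0.41 (SE 0.06, 95% interval -0.51 to -0.30).

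Tlr1, the partner for triacylated lipopeptides, was at 3.04, 2.70 and 2.55 CPM in Cre- and at 4.46, 4.21 and 4.10 CPM in Cre+ libraries. The groups did not overlap, and the libraries within a group differed by less than the groups did. The log2 fold change was 0.63 (SE 0.16, edgeR adjusted p = 0.032), a rise of 54.3%. The call was not kept in every fit: it was lost in 5 of the 6 leave-one-out fits, each short of 1 library, where the log2 fold change ran from 0.57 to 0.69, and stood only without Cre- replicate 1. Without Cre- replicate 3 it was 0.57, with an adjusted p of 0.109 from edgeR, and the adjusted p ran from 0.0037 to 0.109 over its 13 alternatives from edgeR, limma and DESeq2.

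Tlr6, the partner for diacylated lipopeptides, was at 15.7, 16.6 and 14.5 CPM in Cre- and at 17.5, 15.1 and 15.1 CPM in Cre+ libraries. The groups overlapped, with a log2 fold change of 0.03 (SE 0.10, 95% interval -0.16 to 0.21, edgeR adjusted p = 0.92). Because of their shared runs, Tlr1 and Tlr6 were also summed into one feature, an alternative chosen after seeing the data, and the sum had a log2 fold change of 0.14 (SE 0.09, edgeR adjusted p = 0.44). The sum is mostly Tlr6, whose level per kilobase was 5.09 ± 0.446 times that of Tlr1 in Cre- and 3.35 ± 0.158 times in Cre+ libraries.

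Tlr4 (chr4:66827584-66930284, plus strand), the receptor for bacterial lipopolysaccharide, was at 31.0, 36.0 and 32.7 CPM in Cre- and at 48.9, 40.3 and 43.7 CPM in Cre+ libraries. Cre+ replicate 1 was the highest, and all Cre+ libraries were above all Cre- libraries. The mean rose by 33.3%, from 33.2 ± 2.51 to 44.3 ± 4.32 CPM (SD, n = 3 libraries each). The log2 fold change was 0.41 (SE 0.08, 95% interval 0.26 to 0.57, edgeR adjusted p = 0.0062). Tlr2 and Tlr4 kept their calls under all 13 alternatives, with log2 fold changes of -0.43 to -0.33 and 0.34 to 0.49.

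Tlr5 (chr1:182954788-182976044, plus strand), the flagellin receptor, had 0, 2 and 1 counts in Cre- and 2, 2 and 0 counts in Cre+ libraries. With so few counts, no difference was detectable (exact 2-sided permutation test of CPM, p = 1.0).

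**Figure D2:**
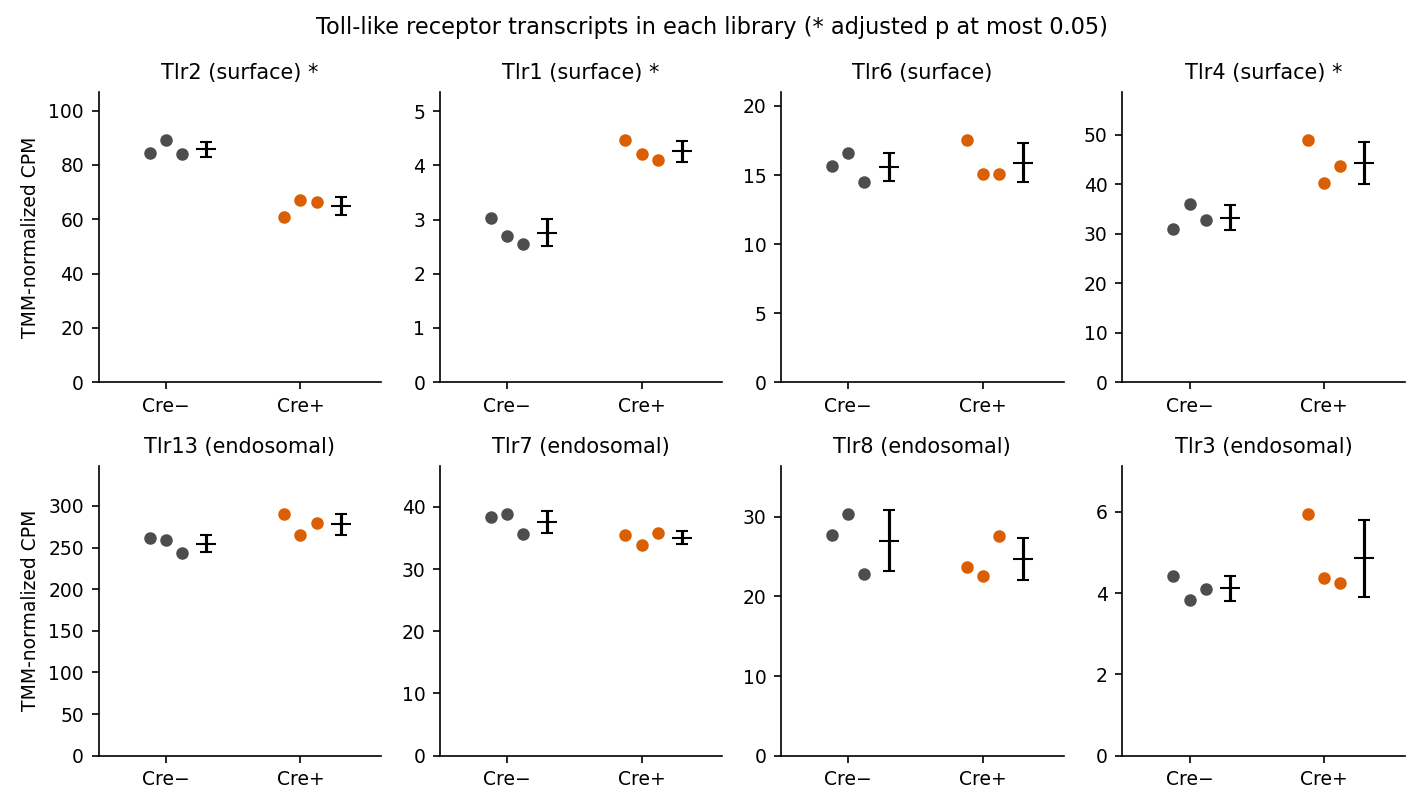
TMM-normalized CPM of the 8 tested receptors on linear axes from 0, with 1 point per library (grey, Cre-; orange, Cre+) and the mean ± SD of the 3 libraries beside them. The Cre+ points of Tlr2 lie below the Cre- points, those of Tlr1, Tlr4 and Tlr13 lie above them, and those of Tlr6, Tlr7, Tlr8 and Tlr3 overlap.

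Among the endosomal receptors, Tlr13 (chrX:106143204-106160493, plus strand) was at 262, 260 and 243 CPM in Cre- and at 290, 265 and 279 CPM in Cre+ libraries. The groups did not overlap, but the nearest libraries differed by little. Its log2 fold change of 0.13 (SE 0.05) had an adjusted p of 0.15 from edgeR. Tlr7 (chrX:167304929-167330558, minus strand), which binds single-stranded RNA, was at 38.3, 38.9 and 35.6 CPM in Cre- and at 35.5, 33.8 and 35.8 CPM in Cre+ libraries. The highest Cre+ library stood above the lowest Cre- library, and the log2 fold change was -0.10 (SE 0.07, 95% interval -0.23 to 0.03, edgeR adjusted p = 0.44). Tlr8 (chrX:167242696-167264329, minus strand), its neighbour and relative, was at 27.8, 30.4 and 22.8 CPM in Cre- and at 23.7, 22.6 and 27.6 CPM in Cre+ libraries. The groups overlapped across most of their range, with a log2 fold change of -0.13 (SE 0.10, 95% interval -0.33 to 0.07, edgeR adjusted p = 0.54).

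Tlr3 (chr8:45395665-45411080, minus strand), the receptor for double-stranded RNA, was at 4.43, 3.82 and 4.10 CPM in Cre- and at 5.95, 4.37 and 4.26 CPM in Cre+ libraries. Cre+ replicate 1 stood apart from the other Cre+ libraries, which lay among the Cre- libraries. Its log2 difference was 0.24 (SE 0.16, 95% interval -0.08 to 0.56, edgeR adjusted p = 0.46). Without Cre+ replicate 1 it was 0.07, and it ran from 0.07 to 0.33 over the 6 leave-one-out fits. Tlr9 (chr9:106222598-106226883, plus strand), the receptor for unmethylated CpG DNA, had 20, 8 and 20 counts in Cre- and 18, 34 and 19 counts in Cre+ libraries, and was below the filter. As CPM this was 0.180 ± 0.0810 in Cre- and 0.239 ± 0.110 in Cre+ libraries (SD, n = 3 each, exact 2-sided permutation test, p = 0.6). Markers of B cells and plasmacytoid dendritic cells, which express Tlr9 and Tlr7 strongly, summed to 0.779 to 1.24 CPM in Cre- and 0.319 to 0.623 CPM in Cre+ libraries, with 0 of the 6 markers above the filter, and their part in the level of Tlr9 was not tested. The other mouse receptors, Tlr11 and Tlr12, had at most 21 and 10 counts in a library.

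**Figure D3:**
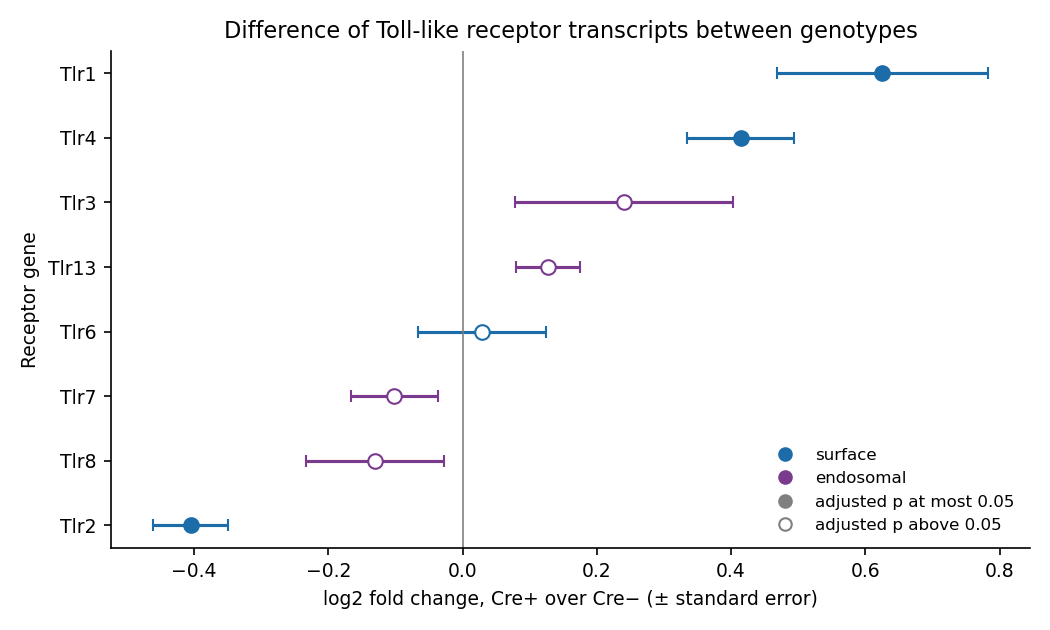
Log2 fold change (Cre+ over Cre-) of the 8 tested receptors with its standard error, from edgeR's fit, coloured by cell surface (blue) or endosome (purple) and filled where the adjusted p was at most 0.05. The filled points are Tlr1 at 0.63, Tlr4 at 0.41 and Tlr2 at -0.41, all of the surface class.

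By class, 3 of the 4 surface receptors tested were called, 2 higher and 1 lower. Of the 4 endosomal receptors tested, 0 were called, against 5.07% of all genes. The surface count includes Tlr1, whose call was lost in 5 of the 6 leave-one-out fits. The median log2 fold change was 0.22 for the surface class and 0.01 for the endosomal class, and the median size was 0.41 and 0.13. The difference between the classes was described and not tested. The level per kilobase summed over the 10 receptors was 116 ± 4.88 in Cre- and 116 ± 3.65 in Cre+ libraries (SD, n = 3 each), and the groups overlapped. The surface sum was 39.4 ± 1.58 and 35.0 ± 0.129, without overlap. Without Tlr2 the surface sum went the other way, from 11.0 ± 0.647 to 13.5 ± 1.18, also without overlap. The endosomal sum was 76.8 ± 3.75 and 81.1 ± 3.53, with overlap. The endosomal share of the family was 66.1% ± 0.901 and 69.8% ± 0.859, and Tlr13 alone made up 50.9% ± 0.798 and 55.7% ± 0.905 of the family.

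Ratios within a library do not depend on how libraries are scaled to each other. Tlr2 stood at 5.02, 4.56 and 4.72 times the level per kilobase of Tlr4 in Cre- libraries and at 2.30, 3.08 and 2.79 times in Cre+ libraries. The ratio of Tlr2 to Tlr1 was 34.7 ± 3.31 in Cre- and 16.9 ± 1.54 in Cre+ libraries, and that of Tlr2 to Tlr6 was 6.82 ± 0.291 and 5.08 ± 0.673. None of these ratios overlapped between the groups. They share their members with the values above and add no independent evidence.

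**Figure D4:**
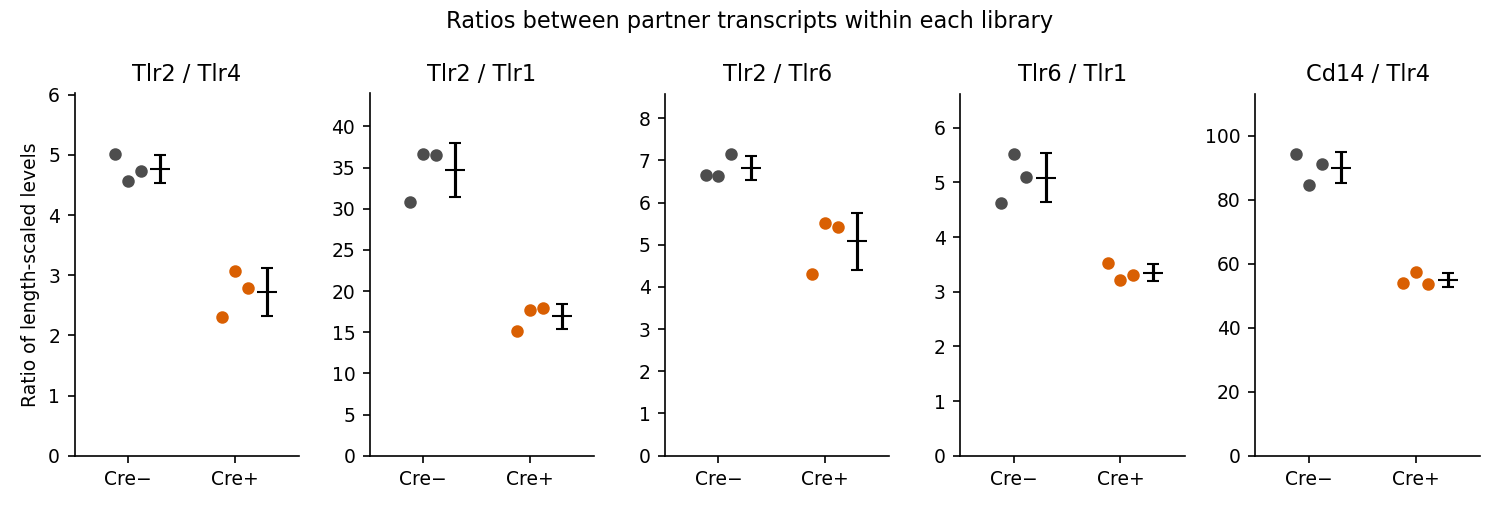
Ratio of the levels per kilobase of 2 transcripts within each library (linear axes from 0, 1 point per library, grey Cre-, orange Cre+, mean ± SD beside them) for Tlr2 over Tlr4, Tlr1 and Tlr6, Tlr6 over Tlr1, and Cd14 over Tlr4. In each panel all Cre+ libraries lie below all Cre- libraries.

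Partners and signalling genes of the receptors were described from lists by role. Of 105 genes, 90 were tested and 10 were called, 6 higher and 4 lower, or 11.1% against 5.07% of all genes. The lists were chosen with earlier results of these data known, and the difference between these shares was not tested. For ligand transfer, Cd14, the coreceptor that hands lipopolysaccharide to TLR4, was at 912, 948 and 929 CPM in Cre- and at 820, 722 and 730 CPM in Cre+ libraries. The groups did not overlap, and its log2 fold change was -0.30 (SE 0.05, edgeR adjusted p = 0.0017). The ratio of Cd14 to Tlr4 per kilobase was 90.0 ± 4.94 in Cre- and 55.0 ± 2.22 in Cre+ libraries. Ly96, which encodes MD-2, did not pass the threshold (log2 fold change -0.02), nor did the scavenger receptors Cd36 (0.15, adjusted p = 0.068) and Msr1 (0.15, adjusted p = 0.099) in edgeR's test. Cd180, which encodes RP105, a TLR4 homologue without a signalling domain, was at 36.0, 36.2 and 35.0 CPM in Cre- and at 43.9, 46.5 and 42.7 CPM in Cre+ libraries. It rose with a log2 fold change of 0.31 (SE 0.06, edgeR adjusted p = 0.0082), while Ly86, its MD-1 partner, was at 0.03.

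For folding and trafficking, 1 of 10 genes was called, against 5.07% of all genes. Unc93b1, the chaperone of the endosomal receptors, went from 354 ± 18.1 to 328 ± 2.81 CPM, a log2 fold change of -0.11 (edgeR adjusted p = 0.20). Lrrc59, which takes part in the transport of nucleic acid-sensing receptors, had a log2 decrease: it fell by 0.31 (edgeR adjusted p = 0.023). Rab7b and Rab11a, which guide endosomal traffic, were at 0.15 and -0.13 and did not pass. For the processing of ligands and receptors in the endosome (proteases, nucleases and transporters), 2 of 11 genes tested were called, beside the same 5.07%. Ctsk rose by 0.33 (adjusted p = 0.0012) and Ctsb by 0.14 (adjusted p = 0.024) in edgeR's test, both cathepsins. Ctss and Lgmn, 2 further proteases that cut endosomal receptors, were at 0.00302 and 0.10 on the log2 scale and did not pass.

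None of the 5 adaptors tested was called, and their log2 fold changes ran from 0.04 to 0.13, with Pik3ap1, which links TLRs to PI3-kinase, at 0.07, Myd88 at 0.07 and Ticam1, which encodes TRIF, at 0.04. Of 19 kinases and ubiquitin enzymes, Map3k8, an activator of the ERK pathway, rose by 0.34 (edgeR adjusted p = 0.014), and Irak2, Ube2n and Tbk1, the most abundant per kilobase, did not pass. None of 13 transcription factors was called, Atf3, Irf5 and Irf8 included. Over all genes tested 5.07% were called, and lists as short as those in this paragraph cannot show a share below that. Of 15 negative regulators tested, Nfkbia, the inhibitor of NF-κB that NF-κB itself induces, fell by 0.20 (edgeR adjusted p = 0.030), and Nfkbib and Tollip did not pass. The call of Nfkbia was lost without a filter on expression (-0.12, edgeR adjusted p = 0.43), with edgeR's own filter (-0.15, edgeR adjusted p = 0.13) and with a replicate block (-0.20, edgeR adjusted p = 0.074).

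Of 20 genes that TLR ligands induce, 11 were tested and 3 were called, against 5.07% of all genes. The chemokine Ccl3 was at 18.0, 23.2 and 21.9 CPM in Cre- and at 39.2, 41.4 and 37.8 CPM in Cre+ libraries. All Cre+ libraries were above all Cre- libraries, with a log2 fold change of 0.91 (SE 0.09, edgeR adjusted p = 1.4e-05). The chemokine Ccl4 rose by 0.56 (edgeR adjusted p = 0.027), from 11.5 ± 2.55 to 17.1 ± 1.88 CPM. The costimulatory protein Cd86 fell by 0.49 (edgeR adjusted p = 0.0016). The cytokine Il1a was at 0.34 and did not pass. Il1b did not pass either, with overlapping groups and a log2 fold change of -0.52 (edgeR adjusted p = 0.16). Il6 was below the filter, its mean going from 0.239 down to 0.0974 CPM without overlap between the groups. The paper reports both transcripts as raised in Cre+ microglia of another line, with the Cx3cr1 driver. Of the 10 pathway genes called, Cd14, Cd180, Ctsk, Ccl3 and Cd86 kept their calls in all 6 leave-one-out fits. Lrrc59 lost its call in 5 of these 6 fits, and Ctsb, Map3k8, Nfkbia and Ccl4 each lost theirs in 4. The call of Lrrc59 was also lost without a filter on expression (-0.23, edgeR adjusted p = 0.11) and with edgeR's own filter (-0.26, edgeR adjusted p = 0.071), and that of Ctsb with a replicate block (0.14, edgeR adjusted p = 0.067). The count of pathway genes called was lowest, at 6, without Cre+ replicate 1 and without Cre+ replicate 3.

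**Figure D5:**
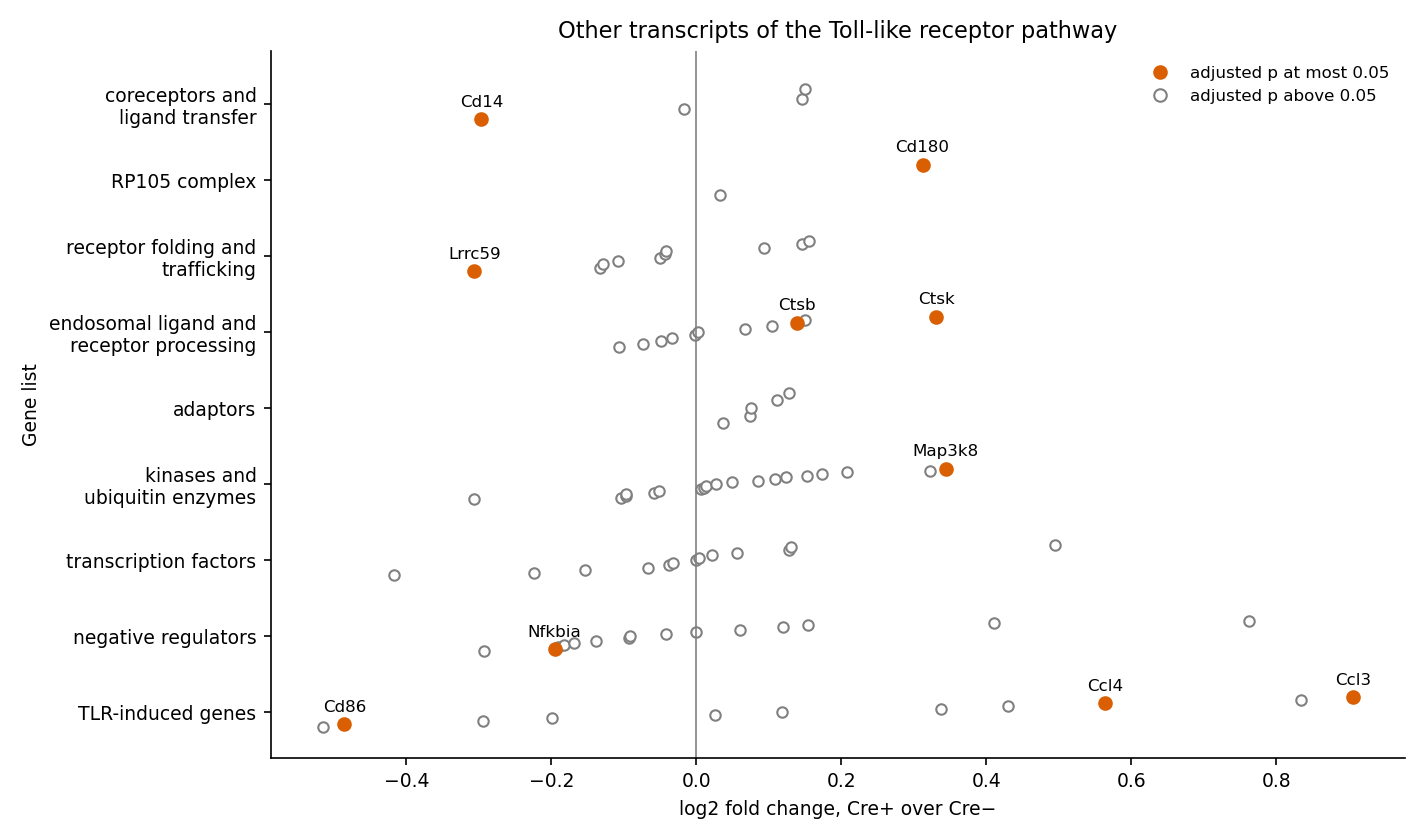
Log2 fold change (Cre+ over Cre-) of the 90 tested pathway genes, 1 point per gene in 9 lists by role (points spread vertically within a list for visibility), orange where the adjusted p from edgeR was at most 0.05. Ccl3 at 0.91 and Ccl4 at 0.56 are the called genes farthest to the right, Cd86 at -0.49 the one farthest to the left, and the adaptors lie between 0.04 and 0.13.

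Markers of other cells were measured beside these genes. Border-associated macrophages, which also express surface receptors, had 3 of 6 markers tested, and these split, Mrc1 at 0.47 (adjusted p = 6.7e-04) and Pf4 at -0.79 (adjusted p = 0.0096) in edgeR's test. Their sum was 152 to 154 CPM in Cre- and 151 to 183 CPM in Cre+ libraries. Endothelial markers had 2 of 6 tested and summed to 20.9 to 22.9 CPM in Cre- and 24.3 to 27.9 CPM in Cre+ libraries, without overlap. Nearly all of this sum was Flt1 (20.1 CPM in Cre- and 25.2 CPM in Cre+, log2 fold change 0.33, edgeR adjusted p = 0.025). The means of the other 5 markers were lower in Cre+ libraries, with Pecam1 at 0.477 and 0.271 CPM without overlap, and Kdr at 1.22 and 0.958 CPM with overlap. Markers of the oligodendrocyte lineage, with 2 of 7 tested, summed to 73.3 to 83.2 CPM in Cre- and 70.4 to 75.0 CPM in Cre+ libraries. Astrocyte markers, with 2 of 7 tested, summed to 44.0 to 48.1 and 42.6 to 48.4 CPM. Both sums overlapped, 0 of their markers were called, and the highest were Cspg4 and Aldoc. Neutrophil markers, with 1 of 6 tested, summed to 8.93 to 11.1 and 7.04 to 7.84 CPM. Nearly all of this sum was S100a8 (9.64 CPM in Cre- and 7.29 CPM in Cre+, log2 fold change -0.40, edgeR adjusted p = 0.072). The other neutrophil markers, S100a9 and Ly6g included, were below the filter. Neither neuronal nor fibroblast and mural markers had a member tested. Their sums were 2.45 to 3.23 and 1.93 to 2.08 CPM for neurons and 1.44 to 2.37 and 0.585 to 0.741 CPM for fibroblasts and mural cells. No marker of these lists was at 0 counts in all libraries, and their part in the receptor values was not tested.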

How the data were processed

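RNA was measured in 6 libraries, 3 Cre- and 3 Cre+. The authors deposited counts of reads per Ensembl gene on GRCm38 (the submitters' processing notes name STAR 2.7.9a and featureCounts 2.0.3), with CPM and FPKM made by the authors from these counts. All values here come from the counts. The library kit does not mark strand. Genes were matched to GENCODE M21 by identifier (55227 of 55487). After removal of ribosomal RNA biotypes, a gene was kept if 4 or more libraries exceeded 1 CPM. The quasi-likelihood test of edgeR 4.0.16 (R 4.3.3) was run after TMM normalization, without covariates, with Benjamini-Hochberg adjustment over 11429 genes and a threshold of 0.05. Intervals are 95% Wald intervals. The common dispersion was 0.0100. The procedure was tested on simulated data. Chi-square per degree of freedom between libraries was 18.8 to 25.8 within a group, so none was a copy of another. An exact permutation test of 3 against 3 cannot go below p = 0.1. Similar sequences came from blastn 2.17.0. Named genes were the members, Tlr11, Tlr12, Nr1d1 and, in each pathway list, the called genes and the 3 highest per kilobase. Further genes such as Ly96, Il1b and Il6 were named for their role. The members and lists were chosen with earlier results of these data known. Alternatives were other size factors, filters, limma 3.58.1, DESeq2 1.42.0, a replicate block and leaving out each library.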

Additional observations from a re-analysis of the deposited data

How the results depend on the processing

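Tlr2 and Tlr4 kept their direction and call under all 13 alternatives, and Tlr3, Tlr7 and Tlr8 stayed on their side of the threshold in all 13, though Tlr3 moved to 0.07 without Cre+ replicate 1. The family had 3 called members in the reported fit, 4 without a filter on expression, where Tlr13 was added (log2 fold change 0.21, adjusted p = 0.029 from edgeR) and the median of all genes moved to 0.08, and 2 to 3 when 1 library was left out. Tlr6 turned to -0.023 without Cre- replicate 3 and to -0.047 without Cre+ replicate 1, a range of -0.047 to 0.076 over the fits that left out 1 library. Nr1d1 ran from -0.98 to -0.50 over these fits. The pathway count of 10 became 21 without a filter and ran from 6 to 9 with 1 library left out. Over all genes, 579 calls became 1528 without a filter, 886 with DESeq2, and 317, 339 and 376 without Cre+ replicate 3, Cre- replicate 3 and Cre+ replicate 2. Without length scaling the endosomal share was 70.2% in Cre- and 72.6% in Cre+ libraries. With the longest transcript as length 7 of 10 members kept their rank, and Tlr4 moved above Tlr7 and Tlr8. The cause of these shifts was not tested.

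Same-numbered libraries did not deviate together (correlations of -0.04 to 0.01). With 3 libraries per group, a shared effect smaller than the spread between libraries would not show here. Whether the numbers pair samples is not given by the labels and was not settled. With the replicate block, 2 members were called, since Tlr1 was at 0.63 with an adjusted p of 0.051 from edgeR, and 430 genes and 8 pathway genes were called in all. Tlr5, Tlr9, Tlr11 and Tlr12 were left out of the reported fit by the filter on CPM.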
